A study of Mus musculus with 30 samples.

Results

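Glutathione synthesis and the NRF2 antioxidant response were followed in mouse liver through 10 genes: *Gclc*, *Gclm*, *Gss*, *Gsr*, *Gpx1*, *Txnrd1*, *Srxn1*, *Nqo1*, *Hmox1* and *Prdx1*. They were taken by gene symbol from a table of 14173 genes, and all 10 were present and passed the filter on low counts. The livers came from male C57BL6/J mice aged 6 months, 6 mice per diet and 30 in all, which had eaten their diet for 12 weeks and were killed after a 4 h fast. The diets were Cas-20% (labelled NP, with 20% casein, 0.57 g methionine and 0.41 g cysteine per 100 g), Cas-5% (LP, with 5% casein, 0.15 and 0.1 g), Soy-20% (20Soy, with 20% soy protein, 0.22 and 0.22 g), Soy-20% + SAA (20Soy_SAA, the same with both sulfur amino acids added, 0.58 and 0.41 g) and Soy-10% (10Soy, with 11.5% soy protein, 0.13 and 0.13 g). Casein-fed mice had first been kept on NP and soy-fed mice on 20Soy, so the protein source differed before the experimental diets began. Both restricted diets held less protein and less methionine and cysteine than Cas-20% and Soy-20% + SAA, and the effects of protein and of sulfur amino acids cannot be told apart in those comparisons.

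Glutathione is made from glutamate, cysteine and glycine, and the supply of cysteine limits the process in liver. Glutamate-cysteine ligase, a catalytic subunit (*Gclc*) with a modifier subunit (*Gclm*), makes the dipeptide, and glutathione synthetase (*Gss*) adds glycine. Glutathione peroxidase 1 (*Gpx1*) spends glutathione on peroxides, and glutathione reductase (*Gsr*) restores it with NADPH. Thioredoxin reductase 1 (*Txnrd1*), peroxiredoxin 1 (*Prdx1*) and sulfiredoxin (*Srxn1*), which repairs overoxidized peroxiredoxins, form a parallel branch. NQO1, a quinone reductase, and HMOX1, which degrades heme, are common readouts of NRF2, a transcription factor that binds antioxidant response elements and is held back by KEAP1.

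Promoter sequence was taken from RefSeq (GRCm38.p6) for 7 of the 10 genes. The windows of *Gclm* and *Gss* are shown because both genes rose in Cas-5% livers, and those of *Srxn1* and *Prdx1* because they hold matches in the thioredoxin branch. Each run reads 5′ to 3′ along the gene's strand, covers up to 250 bases before the RefSeq start and stops where the gene begins in the deposited table. Capitals mark the core of the antioxidant response element, searched on both strands as TGACNNNGC and TGAGNNNGC.
Gclm, chr3:122245307-122245556, plus strand: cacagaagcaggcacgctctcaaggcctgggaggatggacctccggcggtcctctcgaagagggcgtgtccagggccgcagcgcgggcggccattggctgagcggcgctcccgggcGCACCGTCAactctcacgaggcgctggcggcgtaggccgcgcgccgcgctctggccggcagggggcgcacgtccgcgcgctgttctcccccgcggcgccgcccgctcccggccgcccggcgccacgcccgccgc
Gss, chr2:155592811-155593060, minus strand: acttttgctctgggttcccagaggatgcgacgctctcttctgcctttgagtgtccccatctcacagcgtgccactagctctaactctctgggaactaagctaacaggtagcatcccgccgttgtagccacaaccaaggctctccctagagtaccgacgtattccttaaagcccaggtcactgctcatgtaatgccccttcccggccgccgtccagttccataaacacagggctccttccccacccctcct
Srxn1, chr2:152105274-152105515, plus strand: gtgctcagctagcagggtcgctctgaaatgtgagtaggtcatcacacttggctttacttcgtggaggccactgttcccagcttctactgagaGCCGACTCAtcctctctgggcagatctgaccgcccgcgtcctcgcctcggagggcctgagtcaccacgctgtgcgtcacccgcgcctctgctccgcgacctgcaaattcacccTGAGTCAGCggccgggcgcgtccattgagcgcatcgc
Prdx1, chr4:116685349-116685543, plus strand: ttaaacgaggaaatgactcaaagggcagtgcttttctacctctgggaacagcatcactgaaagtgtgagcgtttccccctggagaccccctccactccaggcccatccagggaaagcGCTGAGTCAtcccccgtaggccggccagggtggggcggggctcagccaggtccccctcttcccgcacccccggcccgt
*Gclm* held 1 match of TGACNNNGC on the opposite strand, printed as GCACCGTCA, at bases -134 to -126 from the start, and *Prdx1* held 1, GCTGAGTCA, at -133 to -125. *Srxn1* held 2 matches of TGAGNNNGC, GCCGACTCA at -158 to -150 and TGAGTCAGC at -45 to -37. Of the 3 *Txnrd1* windows, 1 held TGACNNNGC at -92 to -84. *Gss*, *Gpx1* and *Nqo1* held neither form in these windows. Of 32851 windows of 250 bases before annotated starts, 10.2% held TGACNNNGC, 14.4% held TGAGNNNGC and 23.0% held at least 1 of them. The core of the C/EBP-ATF response element, searched as TGATGNAA on both strands, was in none of the 7 genes' windows and in 3.45% of all windows.

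Reads were counted at the 3′ ends of transcripts, with 7694015 to 14565542 counts per library. Levels below are normalized counts, the deposited counts divided by 1 size factor per library, and are not scaled to gene length. Libraries 3 to 6 of Soy-20% + SAA stood apart. Across 11967 genes, their counts relative to the other libraries increased with the GC content of the last 200 bases of the transcript. The slopes, in log2 units per 10% GC, were 0.055 in library 3 and 0.168 to 0.194 in libraries 4 to 6. They were -0.057 to 0.023 in the other 26. The 3′ ends of the 10 genes ran from 27.0% GC in *Gclc*, 33.0% in *Txnrd1* and 34.5% in *Gsr* to 46.5% in *Gclm* and 48.0% in *Gpx1*. *Hmox1*, at 34.5% GC, was higher in libraries 3 to 6 (88.8 ± 8.64) than in libraries 1 and 2 (62.8), against the direction of the trend. *Txnrd1* was also higher there (847.0 ± 100.8 against 763.7) and *Gclm* was lower (1874 ± 283.3 against 2072), both with ranges that overlapped. Differences from Soy-20% + SAA are therefore given beside their values with its libraries 1 and 2 alone. All 8 hepatocyte markers were in the table. The 6 pancreatic acinar markers in the table summed to 6400 in Soy-10% liver 4 and to 164.0 to 628.8 in the other livers.

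Of the 10 genes, 7 differed among the 5 diets (edgeR quasi-likelihood F test, adjusted p at or under 0.05), where 43.4% of all tested genes did. *Prdx1* (adjusted p = 1.93e-05), *Gclc* (adjusted p = 2.28e-05), *Gss* (adjusted p = 0.000146) and *Gclm* (adjusted p = 0.000213) had the smallest values, followed by *Gsr* (adjusted p = 0.0021), *Gpx1* (adjusted p = 0.0114) and *Hmox1* (adjusted p = 0.0447). *Srxn1* (adjusted p = 0.121), *Nqo1* (adjusted p = 0.542) and *Txnrd1* (adjusted p = 0.902) did not pass. Without Soy-20% + SAA libraries 3 to 6, 5 genes were called against a background of 26.2%.

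All 3 genes of glutathione synthesis rose in Cas-5% livers without overlap with Cas-20%. *Gclc* rose 1.49-fold, *Gclm* rose 1.27-fold and *Gss* rose 1.70-fold, while *Hmox1* fell to 0.65 of its Cas-20% level. These are 4 of 10 genes called, where 24.9% of all genes were called. The 3 that rose stand against 11.6% of all genes higher, and against 5.14% higher without overlap. In the same livers 2 of 8 hepatocyte markers rose and 4 fell, with a median log2 difference of -0.26 against 0.016 for all genes. Their summed level was 747329 to 878391 in Cas-20% and 763557 to 966004 in Cas-5%. Of 7 sinusoidal endothelial markers, 2 rose, with summed levels of 2664 to 3073 and 3035 to 3304. The part of these cells in the differences was not tested.

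*Gclc* (ENSMUSG00000032350, GRCm38 chr9:77754535-77794485, plus strand) ranged from 3520 to 4473 with a median of 4147 in Cas-20% and from 5033 to 6974 with a median of 6036 in Cas-5%. Every Cas-5% liver lay above every Cas-20% liver. The log2 fold change was 0.58 ± 0.090 (adjusted p = 0.000172), where the error is the standard error, and leaving out single livers kept it at 0.53 to 0.62.

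*Gclm* (ENSMUSG00000028124, chr3:122245557-122270732, plus strand) ranged from 1718 to 2139 with a median of 2046 in Cas-20% and from 2446 to 2631 with a median of 2507 in Cas-5%. The Cas-5% livers lay close together and all above the Cas-20% livers. On the log2 scale the rise was 0.34 ± 0.064 (adjusted p = 0.000799).

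*Gss* (ENSMUSG00000027610, chr2:155563181-155592810, minus strand) ranged from 178.9 to 314.0 with a median of 274.0 in Cas-20% and from 397.7 to 444.3 with a median of 437.9 in Cas-5%. The groups did not overlap, and the spread was wider in Cas-20% (256.7 ± 63.2, SD, n = 6) than in Cas-5% (432.3 ± 17.4). The log2 fold change of 0.77 ± 0.13 (adjusted p = 0.000304) was the highest of the 10. *Acss2* and the antisense genes *Gssos1* and *Gssos2* overlap *Gss* on the other strand. Whether counting used strand is not given in the sources used here. *Gclm* has the same limit, since *Gm17494* overlaps its 3′ end on the other strand. The pseudogene *Gm6061* lies within *Gclm*, and *Eid3* lies within *Txnrd1*, each on the same strand.

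**Figure D1:**
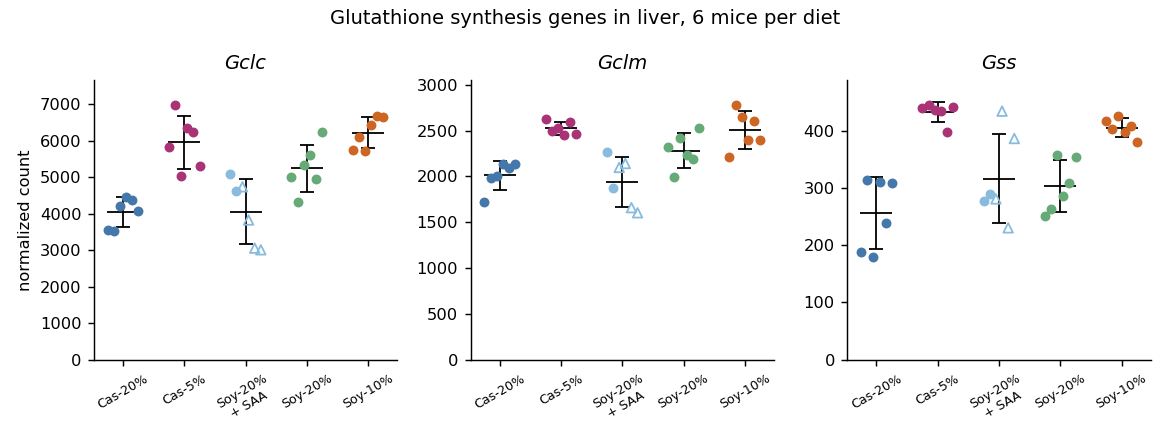
Normalized counts of *Gclc*, *Gclm* and *Gss* in each liver by diet, with the mean and SD of 6 mice as bars and Soy-20% + SAA libraries 3 to 6 as open triangles. All Cas-5% livers sit above all Cas-20% livers in each panel, and all Soy-10% livers sit above all Soy-20% livers for *Gss*.

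In Soy-10% against Soy-20% + SAA, the soy comparison with a methionine and cysteine contrast like that of casein, the ligase genes rose by similar amounts. *Gclc* rose 1.53-fold, *Gclm* rose 1.29-fold and *Gsr* rose 1.75-fold, and *Hmox1* fell to 0.70. These are 4 of 10 genes, where 17.0% of all genes were called. *Gclc* alone of the 10 did not overlap, and 2.9% of all genes were higher without overlap. None of these 4 calls held against libraries 1 and 2 of Soy-20% + SAA, where *Gss* was the 1 member called and 2.54% of all genes were. With the GC slope of each library as a covariate edgeR called no member, and 3.22% of all genes.

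*Gclc* ranged from 3012 to 5089 with a median of 4232 in Soy-20% + SAA and from 5735 to 6675 with a median of 6261 in Soy-10%. All Soy-10% livers were above all Soy-20% + SAA livers. Of the latter, libraries 1 and 2 averaged 4862 and libraries 3 to 6 averaged 3660 ± 812.0, with library 3 at 4740. The log2 fold change was 0.61 ± 0.12 (adjusted p = 0.0061) with all libraries and 0.35 ± 0.088 (adjusted p = 0.0559) with libraries 1 and 2. With the GC slope of each library as a covariate it was 0.32 ± 0.098 (edgeR adjusted p = 0.0868). The part of the 3′ GC trend in this difference was not tested beyond that fit.

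*Gclm* ranged from 1602 to 2270 with a median of 1985 in Soy-20% + SAA and from 2213 to 2775 with a median of 2500 in Soy-10%. The groups overlapped through Soy-20% + SAA library 1. On the log2 scale the rise was 0.37 ± 0.092 (adjusted p = 0.0169), and 0.27 ± 0.10 (adjusted p = 0.216) with libraries 1 and 2.

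*Gss* ranged from 230.2 to 434.1 with a median of 285.0 in Soy-20% + SAA and from 379.9 to 426.1 with a median of 405.4 in Soy-10%. The groups overlapped, since libraries 4 and 6 of Soy-20% + SAA were high. The log2 fold change of 0.35 ± 0.13 (adjusted p = 0.0693) was 0.46 without library 4 (adjusted p = 0.0155) and 0.51 ± 0.085 (adjusted p = 0.00726) with libraries 1 and 2. One fit over all 30 livers gave 0.36 ± 0.13 (adjusted p = 0.0468).

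Against Soy-20%, which had no added amino acids, fewer of all genes were called in Soy-10% than against Soy-20% + SAA. *Gss* was the 1 member called, 1.33-fold higher, where 0.866% of all genes were called. It ranged from 251.3 to 356.7 with a median of 297.0 in Soy-20%, below every Soy-10% liver, and 0.597% of all genes were higher without overlap. Its log2 fold change was 0.42 ± 0.084 (adjusted p = 0.025). The call was lost without Soy-20% liver 1, 2 or 4 or Soy-10% liver 1, 2, 3 or 5 (log2 0.37 to 0.42, adjusted p = 0.0536 to 0.0677), and in 1 fit over 30 livers (adjusted p = 0.198). *Gclc* differed by 0.24 ± 0.078 (adjusted p = 0.178) and *Gclm* by 0.13 ± 0.069 (adjusted p = 0.464) on the log2 scale.

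*Gclc* was also 1.298-fold higher in Soy-20% than in Cas-20% livers, at a log2 value of 0.38 ± 0.091 (adjusted p = 0.0386). It was the 1 member called, where 2.69% of all genes were called. It ranged from 4325 to 6241 with a median of 5178 in Soy-20% and overlapped Cas-20%. The call was lost without Cas-20% liver 1, 2 or 3 or Soy-20% liver 3, 4, 5 or 6 (log2 0.33 to 0.39, adjusted p = 0.0573 to 0.0925), with the slope covariate (adjusted p = 0.0693) and in 1 fit over 30 livers (adjusted p = 0.051). The differences were 0.18 ± 0.073 (adjusted p = 0.194) for *Gclm* and 0.24 ± 0.15 (adjusted p = 0.424) for *Gss*.

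By mean level, *Gclc* was lowest in Cas-20% (4037 ± 412.2, SD, n = 6) and Soy-20% + SAA (4060 ± 895.3), higher in Soy-20% (5247 ± 648.6) and highest in Cas-5% (5958 ± 717.4) and Soy-10% (6223 ± 431.4). *Gclm* ran from 1940 ± 272.7 in Soy-20% + SAA and 2010 ± 157.6 in Cas-20% through 2281 ± 188.0 in Soy-20% to 2505 ± 205.8 in Soy-10% and 2524 ± 72.9 in Cas-5%. *Gss* ran from 256.7 ± 63.2 in Cas-20% through 303.3 ± 45.2 in Soy-20% and 316.3 ± 77.1 in Soy-20% + SAA to 405.2 ± 16.1 in Soy-10% and 432.3 ± 17.4 in Cas-5%. Libraries 1 and 2 of Soy-20% + SAA averaged 4862 for *Gclc*, 2072 for *Gclm* and 283.2 for *Gss*. Both were above all Cas-20% livers for *Gclc*, and the log2 difference of Soy-20% + SAA from Cas-20% was 0.0063 ± 0.13 (adjusted p = 0.981) with all libraries and 0.27 ± 0.11 (adjusted p = 0.663) with those 2. For *Gclm* it was -0.054 ± 0.096 (adjusted p = 0.763) and 0.048 ± 0.11 (adjusted p = 0.95), and for *Gss* 0.30 ± 0.18 (adjusted p = 0.304) and 0.15 ± 0.21 (adjusted p = 0.92). Against Soy-20%, *Gclc* in Soy-20% + SAA differed by -0.38 ± 0.14 (adjusted p = 0.121) with all libraries and by -0.11 ± 0.12 (adjusted p = 0.899) with libraries 1 and 2, so these 2 lay nearer to Soy-20% than to Cas-20%.

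Casein and soy restriction were compared directly by subtracting the soy effect from the casein effect in 24 livers. Protein was 20% and 5% in the casein diets, and 20% and 11.5% in the soy diets. Protein source and depth of restriction therefore cannot be told apart here. With the Soy-20% control the methionine and cysteine contrasts differed as well. With the Soy-20% + SAA control the subtraction gave -0.044 ± 0.16 (adjusted p = 0.897) for *Gclc*, -0.029 ± 0.11 (adjusted p = 0.902) for *Gclm* and 0.41 ± 0.19 (adjusted p = 0.175) for *Gss* on the log2 scale. With libraries 1 and 2 of that control, the values were 0.22, 0.069 and 0.25. With the Soy-20% control, they were 0.32 ± 0.12 (adjusted p = 0.115), 0.20 ± 0.092 (adjusted p = 0.21) and 0.34 ± 0.16 (adjusted p = 0.228). For that control edgeR and DESeq2 called 0 members, 3 had an unadjusted p under 0.05, and edgeR called 5.99% of all genes.

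**Figure D2:**
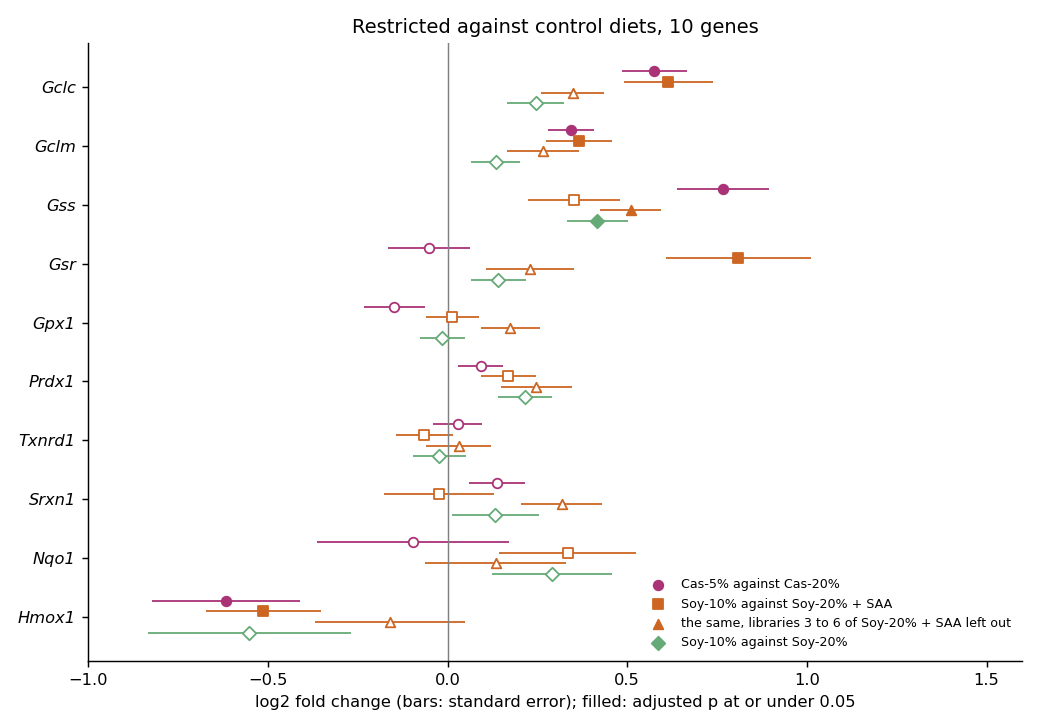
Log2 fold change with its standard error for the 10 genes in restricted against control livers, with filled symbols where the adjusted p was at or under 0.05. *Gclc* is at 0.58 with casein and 0.61 with soy against Soy-20% + SAA. When libraries 3 to 6 are left out, soy *Gclc* moves to 0.35 and soy *Gsr* moves from 0.81 to 0.23.

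The ratio of *Gclc* to *Gclm* normalized counts, a measure added after their values had been seen, was 2.01 ± 0.13 in Cas-20%, 2.08 ± 0.28 in Soy-20% + SAA, 2.296 ± 0.15 in Soy-20%, 2.36 ± 0.30 in Cas-5% and 2.50 ± 0.26 in Soy-10% (SD, n = 6). A ratio of 3′ end counts gives no stoichiometry of the subunits. Of 7 pairs of diets, Soy-20% against Cas-20% passed (two-sided exact permutation test, p = 0.0022, 0.015 after adjustment over the 7). By the same exact permutation test, Cas-5% against Cas-20% had p = 0.026 and Soy-10% against Soy-20% + SAA had p = 0.028, both 0.065 after adjustment. Against Soy-20% + SAA libraries 1 and 2, with a ratio of 2.36 ± 0.16, the exact permutation p was 0.43.

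Across livers, Pearson's r of log2 CPM (counts per 1e6) was 0.914 between *Gclc* and *Gclm*, 0.742 between *Gclm* and *Gss* and 0.661 between *Gclc* and *Gss* over 30 livers. Over the 26 without the libraries that stood apart, it was 0.883, 0.866 and 0.808. The livers share diets, and these values are descriptions. Among 12033 genes, those most like *Gclc* over 30 livers were *Ces1d* (0.924), *Ugt2b36* (0.919) and *Akr1c14* (0.917). Those most like *Gclm* were *Gclc*, *Gm44250* (0.905) and *Ces1d* (0.889), and those most like *Gss* were *Wwc1* (0.850), *Rabac1* (0.845) and *Ephx1* (0.844). Over 26 livers other genes took these places, *Pcsk6* (0.915), *Cept1* (0.912) and *Gm18635* (0.908) for *Gclc* and *Mvp* (0.924), *Slc6a9* (0.912) and *Pcp4l1* (0.904) for *Gclm*. For *Gss* they were *Crot* (0.896), *Wwc1* (0.893) and *Cyp4a14* (0.883).

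Glutathione recycling and peroxide removal gave other patterns. *Gsr* (ENSMUSG00000031584, chr8:33652523-33698163, plus strand) ranged from 437.3 to 575.8 with a median of 462.6 in Cas-20%, from 367.0 to 633.2 with a median of 448.0 in Cas-5%, from 418.4 to 532.9 with a median of 487.4 in Soy-20% and from 481.2 to 633.0 with a median of 515.5 in Soy-10%. In Soy-20% + SAA it ranged from 199.5 to 511.2 with a median of 258.3, with libraries 1 and 2 at 386.5 to 511.2 and libraries 3 to 6 at 199.5 to 287.5. Libraries 3 to 6 lay below every other liver. The rise in Soy-10% against Soy-20% + SAA, 0.81 ± 0.20 (adjusted p = 0.0162) on the log2 scale, was 0.23 ± 0.12 (adjusted p = 0.388) with libraries 1 and 2, and against Soy-20% the difference was 0.14 ± 0.077 (adjusted p = 0.494). With the GC slope of each library as a covariate, the rise against Soy-20% + SAA was 0.35 ± 0.14 (edgeR adjusted p = 0.1885). The part of the 3′ GC trend was not tested beyond that fit.

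*Gsr* was the 1 member whose response differed between casein and soy restriction, by -0.87 ± 0.24 (adjusted p = 0.0294) with the Soy-20% + SAA control, where 8.69% of all genes were called. The difference was -0.29 ± 0.19 (adjusted p = 0.497) with libraries 1 and 2, -0.49 ± 0.17 (adjusted p = 0.103) with the slope covariate and -0.20 ± 0.14 (adjusted p = 0.484) with the Soy-20% control. The call was also lost without Cas-20% liver 6, Cas-5% liver 4 or 6, or Soy-20% + SAA liver 4, 5 or 6 (log2 -0.81 to -0.77, adjusted p = 0.0506 to 0.054). The genes most like *Gsr* over 30 livers were *Alkbh5* (0.967), *Tmed7* (0.964) and *Cog3* (0.957), and over 26 livers *Smim14* (0.850), *Tmed7* (0.846) and *Alkbh5* (0.833).

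**Figure D3:**
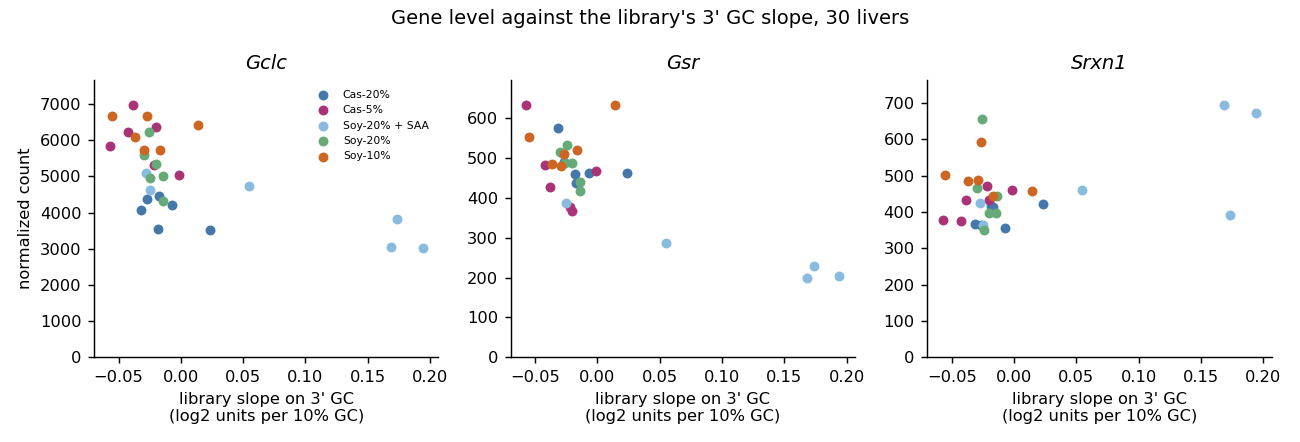
Normalized counts of *Gclc*, *Gsr* and *Srxn1* in each of 30 livers against the slope of the library's counts on 3′ GC content, by diet. The 4 Soy-20% + SAA libraries with slopes of 0.055 to 0.194 hold the 4 lowest *Gsr* values, 199.5 to 287.5.

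*Gpx1* (ENSMUSG00000063856, chr9:108338903-108340343, plus strand) ranged from 20589 to 24713 with a median of 23493 in Cas-5% and from 25737 to 29585 with a median of 28364 in Soy-10%, 2 diets with similar methionine and cysteine. Every Soy-10% liver lay above every Cas-5% liver. These diets held 11.5% soy protein and 5% casein, so protein source and amount cannot be told apart in this pair. *Gpx1* was 1.20-fold higher in Soy-10%, at a log2 value of 0.26 ± 0.062 (adjusted p = 0.0114). It ranged from 21457 to 31103 in Cas-20%, 25979 to 31445 in Soy-20% and 24318 to 30842 in Soy-20% + SAA, all overlapping. Restriction gave -0.15 ± 0.085 (adjusted p = 0.225) with casein and 0.014 ± 0.074 (adjusted p = 0.916) with soy against Soy-20% + SAA, or 0.17 with its libraries 1 and 2.

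*Prdx1* (ENSMUSG00000028691, chr4:116685544-116700822, plus strand) had higher means in the 3 soy diets than in either casein diet. It ranged from 8137 to 9476 with a median of 9390 in Cas-20% and from 9172 to 10032 with a median of 9740 in Cas-5%. In the soy diets it ranged from 9918 to 12608 with a median of 10533 in Soy-20%, from 10247 to 12381 with a median of 11236 in Soy-20% + SAA and from 11010 to 14653 with a median of 12490 in Soy-10%. All livers of each soy diet were above all Cas-20% livers. Soy-10% was 1.29-fold above Cas-5% without overlap, at a log2 value of 0.37 ± 0.066 (adjusted p = 0.0014). As for *Gpx1*, protein source and amount cannot be told apart in this pair. With *Gpx1*, 2 of 10 genes were called there, where 10.7% of all genes were called, 6.14% were higher and 4.09% were higher without overlap. In that comparison 5 of 7 stellate cell markers were lower in Soy-10%, with a median log2 difference of -0.43 against -0.014 for all genes, and summed levels of 3485 to 4065 against 3848 to 5215 in Cas-5%. Of 8 hepatocyte markers, 2 were higher, with summed levels of 785623 to 896590 and 763557 to 966004, and 1 of 2 cholangiocyte markers tested was lower. Of 5 red blood cell markers tested, 1 was higher, and all 6 summed to 6738 to 36665 in Soy-10% and 11505 to 19813 in Cas-5%. Their part in the differences was not tested.

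*Prdx1* was 1.23-fold higher in Soy-20% + SAA than in Cas-20%, at a log2 value of 0.29 ± 0.072 (adjusted p = 0.0469), the 1 member called. There 2.43% of all genes were called and 1.18% were higher without overlap. Of cell markers, 4 of 5 tested for red blood cells and 3 of 8 for hepatocytes were lower there, and 0 of either with libraries 1 and 2. Their part in the difference was not tested. The *Prdx1* call was lost without any 1 Cas-20% liver or Soy-20% + SAA liver 3, 4, 5 or 6 (log2 0.27 to 0.32, adjusted p = 0.0702 to 0.107), and with libraries 1 and 2 the difference was 0.22 ± 0.094 (adjusted p = 0.672). For Soy-20% against Cas-20% it was 0.25 ± 0.072 (adjusted p = 0.0757), where 1.27% of all genes were higher without overlap. Restriction within a source gave 0.092 ± 0.062 (adjusted p = 0.307) with casein, 0.17 ± 0.077 (adjusted p = 0.137) against Soy-20% + SAA, or 0.25 ± 0.099 (adjusted p = 0.237) against its libraries 1 and 2, and 0.22 ± 0.076 (adjusted p = 0.229) against Soy-20%. *Armc1* (0.892), *Psma7* (0.864) and *Akr1c19* (0.845) were most like *Prdx1* over 30 livers, and *Alas1* (0.777), *Pgrmc1* (0.728) and *Ndufa3* (0.727) most like *Gpx1*. Over 26 livers the genes were *Akr1c13* (0.896), *Armc1* (0.895) and *Hint1* (0.887) for *Prdx1*, and *Alas1* (0.822), *Gsta1* (0.819) and *Slc25a20* (0.812) for *Gpx1*.

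Between Soy-20% + SAA and Soy-20%, edgeR called 0 members and 0.00838% of all genes, and 3 members had an unadjusted p under 0.05. DESeq2 called 1 member and 6.16% of all genes there. It called 2 members and 7.82% of all genes in Soy-20% + SAA against Cas-20%, and 2 and 4.28% in Soy-20% against Cas-20%. *Gsr* differed between Soy-20% + SAA and Soy-20% by -0.67 ± 0.20 (adjusted p = 0.0849), or by -0.093 with libraries 1 and 2.

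**Figure D4:**
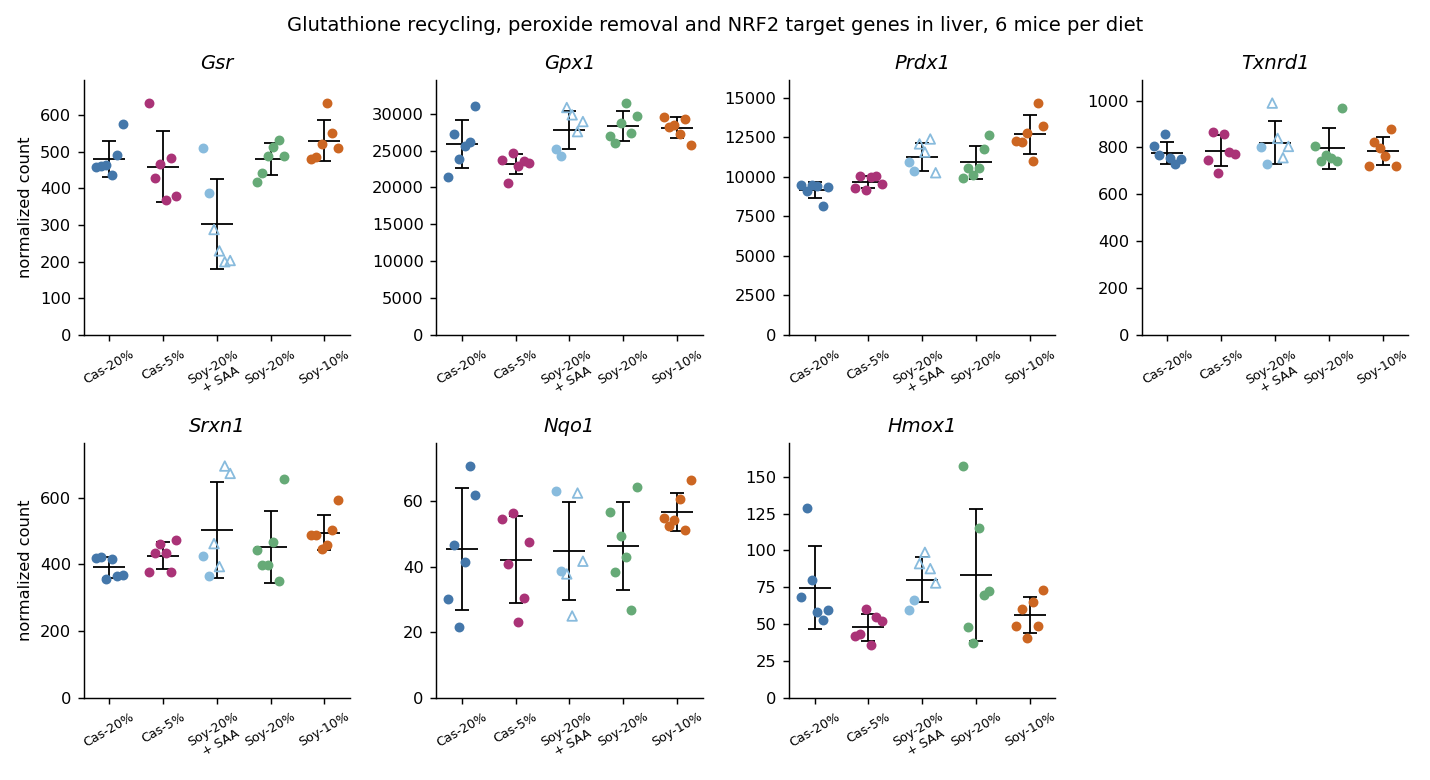
Normalized counts of the other 7 genes in each liver by diet, with the mean and SD of 6 mice as bars and Soy-20% + SAA libraries 3 to 6 as open triangles. *Prdx1* is higher in each soy diet than in Cas-20%, *Gsr* is low in the open triangles, and *Txnrd1* has means from 777.7 to 819.3 over the 5 diets.

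The remaining NRF2 targets did not pass the test in any pair of diets, apart from *Hmox1*. *Txnrd1* (ENSMUSG00000020250, chr10:82833951-82897712, plus strand) averaged 777.7 ± 46.9 in Cas-20%, 785.4 ± 66.2 in Cas-5%, 796.3 ± 86.5 in Soy-20%, 819.3 ± 92.0 in Soy-20% + SAA and 784.6 ± 61.8 in Soy-10% (SD, n = 6), with Soy-20% + SAA libraries 1 and 2 at 763.7. Its log2 difference was 0.028 ± 0.069 with casein restriction and -0.065 ± 0.080 with soy, and the latter turned to 0.031 ± 0.091 with Soy-20% + SAA libraries 1 and 2. *Srxn1* (ENSMUSG00000032802, chr2:152105516-152111376, plus strand) averaged 390.5 ± 30.8 in Cas-20%, 425.4 ± 40.7 in Cas-5%, 451.6 ± 107.6 in Soy-20% and 495.1 ± 52.8 in Soy-10%. In Soy-20% + SAA its libraries 1 and 2 averaged 394.8 and libraries 3 to 6 averaged 555.4 ± 150.8, so the soy difference of -0.025 ± 0.15 (adjusted p = 0.927) turned to 0.32 ± 0.11 (adjusted p = 0.179) without the latter.

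*Nqo1* (ENSMUSG00000003849, chr8:107388225-107403206, minus strand) and *Hmox1* (ENSMUSG00000005413, chr8:75093621-75100589, plus strand) had few counts, 21 to 71 and 33 to 144 raw counts per liver. *Nqo1* averaged 45.4 ± 18.7 in Cas-20%, 42.1 ± 13.3 in Cas-5%, 46.4 ± 13.4 in Soy-20%, 44.8 ± 15.1 in Soy-20% + SAA and 56.6 ± 5.78 in Soy-10%, and all diets overlapped. Libraries 1 and 2 of Soy-20% + SAA averaged 50.9. Its log2 difference of -0.096 ± 0.27 (adjusted p = 0.833) with casein restriction was within its standard error. In Soy-10% it was 0.33 ± 0.19 (adjusted p = 0.231) against Soy-20% + SAA, 0.13 ± 0.20 (adjusted p = 0.795) against libraries 1 and 2 of that diet and 0.29 ± 0.17 (adjusted p = 0.525) against Soy-20%. Between Soy-10% and Cas-5% it was 0.41 ± 0.18, with an unadjusted p of 0.0316 and an adjusted p of 0.15 in edgeR.

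*Hmox1* ranged from 52.8 to 128.7 with a median of 63.9 in Cas-20% and from 35.5 to 60.1 with a median of 47.7 in Cas-5%. The groups overlapped, and Cas-20% liver 2 was the highest. The log2 fold change of -0.62 ± 0.21 (adjusted p = 0.0375) was -0.40 without that liver (adjusted p = 0.0751). The call was also lost without Cas-20% liver 3 or Cas-5% liver 1, 2, 4 or 6 (log2 -0.64 to -0.40, adjusted p = 0.0526 to 0.0833 over these 6 fits), with the replicate block (adjusted p = 0.0504), in 1 fit over 30 livers (adjusted p = 0.0791) and with the slope covariate, at -0.31 ± 0.17 (adjusted p = 0.216).

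With soy, *Hmox1* ranged from 59.2 to 98.7 with a median of 82.8 in Soy-20% + SAA and from 40.7 to 73.1 with a median of 54.8 in Soy-10%. The groups overlapped, and libraries 3 to 6 of Soy-20% + SAA, at 77.9 to 98.7, were all above libraries 1 and 2. Its log2 fold change was -0.51 ± 0.16 (adjusted p = 0.0407), and -0.16 ± 0.21 (adjusted p = 0.762) with libraries 1 and 2. The call was lost without Soy-20% + SAA liver 3, 4, 5 or 6 or Soy-10% liver 1, 2, 3 or 5 (log2 -0.54 to -0.43, adjusted p = 0.0629 to 0.0872). It was also lost with the replicate block (adjusted p = 0.0509) and in 1 fit over 30 livers (adjusted p = 0.141). In Soy-20%, *Hmox1* ranged from 37.2 to 157.3 with a median of 71.2. Soy-10% differed from Soy-20% by -0.55 ± 0.28 (edgeR adjusted p = 0.459), and the groups overlapped. The genes most like *Hmox1* over 30 livers were *Ebp* (0.630), *Acot7* (0.630) and *Gm2a* (0.626), and over 26 livers *Ebp* (0.642), *Acot7* (0.624) and *Acly* (0.623).

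Kupffer cells, the liver macrophages that clear red blood cells, also express *Hmox1*. All 11 Kupffer cell markers were in the table, and edgeR called 0 of 11 in Cas-5% against Cas-20%, with summed levels of 3586 to 6103 in Cas-20% and 4009 to 5586 in Cas-5%. Of 5 red blood cell markers tested, 4 fell in Cas-5%, and all 6 summed to 15730 to 34950 in Cas-20% and 11505 to 19813 in Cas-5%. In Soy-10% against Soy-20% + SAA, 2 Kupffer cell markers rose, *Marco* and *C1qc*, and the 11 summed to 4337 to 7240 and 4297 to 5614. With libraries 1 and 2 of Soy-20% + SAA alone, edgeR called 0 of the 11. Stellate cell markers summed to 3333 to 4167 in Cas-20% and 3848 to 5215 in Cas-5%, and 2 of 7 rose. Cholangiocyte markers summed to 265.6 to 352.4 in Soy-10% and 346.0 to 519.0 in Soy-20% + SAA, where 1 of 2 tested fell, or 2 of 3 with libraries 1 and 2. The part of these cells in any change above was not tested, and in whole liver fewer cells of a type and less RNA per cell cannot be told apart.

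Other genes of these pathways were followed as lists. The first list held other reported NRF2 targets. In Cas-5%, 9 of 33 rose and 5 fell, with a median log2 difference of 0.053 against 0.016 for all genes, of which 11.6% rose and 13.3% fell. In Soy-10% against Soy-20% + SAA, 15 of 32 rose and 1 fell, with a median of 0.25 against -0.010, where 8.51% of all genes rose and 8.47% fell. With libraries 1 and 2 alone, 11 of 32 rose and 0 fell, where 1.11% of all genes rose and 1.43% fell. Against Soy-20%, 2 of 32 rose in Soy-10% and 0 fell, where 0.866% of all genes were called. In Soy-20% against Cas-20%, 7 of 31 were higher and 0 lower, where 2.69% of all genes were called. In Soy-10% against Cas-5%, 13 of 33 were higher and 1 lower, where 10.7% of all genes were called. *Ephx1*, the microsomal epoxide hydrolase, went from 1498 ± 273.6 normalized counts in Cas-20% to 3397 ± 330.7 in Cas-5%, at a log2 value of 1.20 ± 0.11 (adjusted p = 8.52e-07). With soy it went from 2502 ± 414.0 to 4047 ± 242.1, at 0.69 ± 0.10 (adjusted p = 0.000994), or 0.80 ± 0.14 (adjusted p = 0.00896) with libraries 1 and 2. *Htatip2*, an oxidoreductase, rose by 1.08 ± 0.10 (adjusted p = 1.3e-06) with casein and by 0.78 ± 0.12 (adjusted p = 0.00105) with soy, or 0.89 ± 0.16 (adjusted p = 0.0116) with libraries 1 and 2. *Aox1*, aldehyde oxidase, rose by 0.92 ± 0.11 (adjusted p = 7.88e-06) and by 0.89 ± 0.13 (adjusted p = 0.00106), or 0.59 ± 0.099 (adjusted p = 0.00726) with libraries 1 and 2. *Phgdh*, the first enzyme of serine synthesis, had no counts in the 6 Cas-20% livers, 37.8 ± 16.9 normalized counts in Cas-5% and 2.90 ± 2.09 in Soy-10%.

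Glutathione S-transferases conjugate glutathione to electrophiles. Of 22 tested, 2 rose and 7 fell in Cas-5%, with a median of -0.23 against 0.016 for all genes, of which 11.6% rose and 13.3% fell. *Gstk1* fell by 0.997 ± 0.079 (adjusted p = 1.49e-07) on the log2 scale, from 1707 ± 205.5 to 846.6 ± 39.2, *Gstm7* fell by 1.07 ± 0.10 (adjusted p = 1.42e-06), *Gstm6* fell by 0.97 ± 0.094 (adjusted p = 1.45e-06) and *Gstz1* fell by 0.67 ± 0.070 (adjusted p = 3.01e-06). In Soy-10% against Soy-20% + SAA, 7 of 22 rose and 3 fell, and with libraries 1 and 2 alone 6 of 23 rose and 0 fell. Of all genes 17.0% were called with all libraries and 2.54% with those 2. Against Soy-20%, 1 of 22 rose in Soy-10% and 0 fell, where 0.866% of all genes were called. The casein effect was below the soy effect for 9 of 22 with the Soy-20% + SAA control, 5 of 23 with its libraries 1 and 2, and 7 of 22 with the Soy-20% control, and above it for 0 in each of these edgeR tests. It was below the soy effect for 5.49%, 1.59% and 3.57% of all genes in these tests. Protein was cut further with casein than with soy in each of them. Soy-10% was higher than Cas-5% for 11 of 22, where 6.14% of all genes were higher. Transferases of 1 class share much sequence, so their counts are uncertain where reads could belong to more than 1 gene.

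Of 26 other genes of glutathione use, breakdown and recycling, 3 rose and 7 fell in Cas-5%, and 3 of 27 rose and 2 fell in Soy-10% against Soy-20% + SAA, or 1 and 0 with libraries 1 and 2. The shares of all genes called were 24.9%, 17.0% and 2.54%. In Soy-10% against Soy-20%, 0 of 26 were called, where 0.866% of all genes were. In Cas-5%, *Lap3*, a leucine aminopeptidase, fell by 0.40 ± 0.076 (adjusted p = 0.00087). *Glrx5*, a mitochondrial glutaredoxin, fell by 0.37 ± 0.087 (adjusted p = 0.00496), and *Slc25a39*, the mitochondrial glutathione carrier, fell by 0.26 ± 0.081 (adjusted p = 0.0255). *Glo1*, glyoxalase 1, rose by 0.26 ± 0.075 (adjusted p = 0.0172). Of 26 thioredoxin, peroxiredoxin and other antioxidant enzymes, 3 rose and 10 fell in Cas-5%, and 4 rose and 4 fell in Soy-10% against Soy-20% + SAA, or 1 and 0 with libraries 1 and 2, where 24.9%, 17.0% and 2.54% of all genes were called. Soy-10% against Soy-20% had 0 of these 26 enzymes called. *Prdx5* and *Prdx6*, relatives of *Prdx1*, moved in Cas-5%, where *Prdx5* fell by 0.46 ± 0.060 (adjusted p = 3.41e-05) and *Prdx6* fell by 0.51 ± 0.067 (adjusted p = 2.95e-05). *Sephs2*, which makes the selenium donor for selenoproteins, fell by 0.56 ± 0.065 (adjusted p = 9.46e-06), and *Sesn3*, a sestrin, fell by 0.91 ± 0.11 (adjusted p = 8.43e-06).

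Among 14 genes of NRF2 and its control, 1 rose and 2 fell in Cas-5%, and 1 rose and 1 fell in Soy-10% against Soy-20% + SAA, or 0 and 1 with libraries 1 and 2. Of all genes 24.9%, 17.0% and 2.54% were called. In Soy-10% against Soy-20%, 0 of 14 were called, where 0.866% of all genes were. *Nfe2l2*, which encodes NRF2 and was named after its values were seen, averaged 1195 ± 144.1 in Cas-20%, 1156 ± 153.7 in Cas-5%, 1175 ± 144.0 in Soy-20% + SAA and 1023 ± 181.5 in Soy-10%. Its log2 difference was -0.033 ± 0.098 (adjusted p = 0.842) with casein and -0.20 ± 0.12 (adjusted p = 0.23) with soy, or -0.23 ± 0.16 (adjusted p = 0.515) with libraries 1 and 2. *Keap1* had -0.020 ± 0.083 (adjusted p = 0.887) with casein and -0.22 ± 0.075 (adjusted p = 0.0592) with soy, or -0.023 ± 0.071 (adjusted p = 0.913) with libraries 1 and 2. *Mafk*, a small MAF partner of NRF2, fell by 0.65 ± 0.12 (adjusted p = 0.000694) with casein, from 100.7 ± 14.4 to 63.5 ± 8.51, and by 0.82 with soy (adjusted p = 0.0011), where libraries 1 and 2 gave -0.82 ± 0.18 (adjusted p = 0.0269). *Bach2*, a repressor with the same partners, rose by 0.54 ± 0.14 (adjusted p = 0.00821) in Cas-5% and had -0.080 ± 0.19 (adjusted p = 0.796) in Soy-10%, or -0.16 ± 0.21 (adjusted p = 0.757) against libraries 1 and 2. *Nfe2l1*, a relative of NRF2, had 0.25 ± 0.11 (adjusted p = 0.102) with casein and 0.30 ± 0.087 (adjusted p = 0.032) with soy, the latter 0.16 ± 0.092 (adjusted p = 0.421) with libraries 1 and 2.

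Of 11 genes of methionine and cysteine supply and use, 2 rose and 6 fell in Cas-5%. In Soy-10% against Soy-20% + SAA, 1 rose and 4 fell, or 1 and 3 with libraries 1 and 2. By comparison 24.9%, 17.0% and 2.54% of all genes were called. Against Soy-20%, 1 of 11 rose in Soy-10% and 2 fell, where 0.866% of all genes were called. *Csad*, which directs cysteine sulfinate to taurine, went from 2324 ± 728.1 normalized counts in Cas-20% to 15121 ± 3093 in Cas-5%, at a log2 value of 2.72 ± 0.19 (adjusted p = 3.81e-08). With soy it went from 8367 ± 2152 to 15408 ± 947.9, at 0.88 ± 0.14 (adjusted p = 0.00127), or 0.85 ± 0.14 (adjusted p = 0.0066) with libraries 1 and 2. *Bhmt*, which remakes methionine from homocysteine, fell by 2.69 ± 0.21 (adjusted p = 1.07e-07) with casein and by 1.76 with soy (adjusted p = 0.000202), or -1.34 ± 0.13 (adjusted p = 0.000423) with libraries 1 and 2. *Gnmt*, which consumes S-adenosylmethionine, fell by 1.68 ± 0.11 (adjusted p = 1.28e-08) and by 0.75 (adjusted p = 0.000202), or -0.60 ± 0.093 (adjusted p = 0.0052) with libraries 1 and 2. *Mpst*, an enzyme of cysteine breakdown, fell by 0.85 ± 0.13 (adjusted p = 0.000118) and by 0.65 (adjusted p = 0.00111), or -0.37 ± 0.090 (adjusted p = 0.047) with libraries 1 and 2.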

How the data were processed

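RNA was measured in liver by QuantSeq 3′ sequencing, with 1 library per mouse. The authors processed the reads with the Bluebee pipeline on GRCm38, and the aligner and annotation release are not given in the sources used here. The deposited counts are raw reads per gene. The deposited normalized signal is those counts divided by 1 size factor per library (DESeq2 1.30 in R 4.0.3, per the labels), and it gave the levels and ratios.

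Raw counts were tested in edgeR 4.0.16 and R 4.3.3 (filterByExpr, TMM, two-sided quasi-likelihood F test, Benjamini-Hochberg over all genes tested, threshold 0.05), for each pair of diets in its own 12 livers. Alternatives were DESeq2 1.42.0, its size factors, no filter, the replicate number as a block, the 3′ GC slope as a covariate, 1 fit over 30 livers, leaving out Soy-20% + SAA libraries 3 to 6, which leaves 2 livers of that diet, and leaving out each liver. The code was tested on simulated data. Replicates are separate mice.

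The members and lists were chosen with earlier results of these data known. All 10 members were named, with up to 4 genes per list with the smallest p for any difference among the 5 diets, and the 3 genes with the highest r to each member called in a pair of diets. In the levels, a single size factor does not correct a trend with 3′ GC content.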

Additional observations from a re-analysis of the deposited data

Results flagged for a closer look

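In 50 groups of 6 livers, the highest or lowest value lay apart from the others by Dixon's criterion in 4, and chance gives about 1 in 20. *Gss* was 397.7 normalized counts in Cas-5% liver 5, the lowest of its group and above every Cas-20% liver. *Txnrd1* was 966.6 in Soy-20% liver 6, the highest of its group. *Hmox1* was 128.7 in Cas-20% liver 2, the highest, and without it the difference of Cas-5% was -0.40 on the log2 scale (edgeR adjusted p = 0.0751). *Prdx1* was 8137.3 in Cas-20% liver 5, the lowest. *Gsr* differed between casein and soy restriction, with a casein effect -0.87 on the log2 scale relative to the soy effect with the Soy-20% + SAA control, and -0.29 without libraries 3 to 6 of that diet.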

How the results depend on the processing

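The rises of *Gclc*, *Gclm* and *Gss* in Cas-5%, and the higher *Prdx1* and *Gpx1* in Soy-10% than in Cas-5%, kept their direction and their side of the threshold in 6 other settings and in 12 fits that left out 1 liver. Other counts of members called moved. Cas-5% against Cas-20% had 3 with the replicate block, the GC slope covariate or 1 fit over 30 livers, in place of 4, and any difference among the 5 diets had 6 with the block and 5 with the covariate or without libraries 3 to 6, in place of 7. Soy-10% against Soy-20% + SAA had 3 with the block, 0 with the covariate and 1 without libraries 3 to 6, in place of 4, and the 4 in 1 fit over 30 livers held *Gss* and not *Hmox1*. Soy-10% against Soy-20% had 0 in 1 fit over 30 livers, in place of 1. Soy-20% + SAA against Soy-20% had 1 by DESeq2 and 3 in 1 fit over 30 livers, in place of 0. Soy-20% + SAA against Cas-20% had 0 with no filter, with the replicate block, with the slope covariate or without libraries 3 to 6, and 2 by DESeq2 or in 1 fit over 30 livers, in place of 1. Soy-20% against Cas-20% had 2 by DESeq2 and 0 with the slope covariate, in place of 1, and in 1 fit over 30 livers the 1 call was *Prdx1* (adjusted p = 0.0323) and not *Gclc* (adjusted p = 0.051). The difference between sources with the Soy-20% + SAA control had 0 with the slope covariate or without libraries 3 to 6, in place of 1. The cause was not tested. Leaving out 1 liver gave 0 to 1 for Soy-10% against Soy-20%, for Soy-20% against Cas-20% and for the difference between sources, 0 to 3 for Soy-20% + SAA against Soy-20% (3 without Soy-20% + SAA liver 1 and 1 without its liver 2), and 0 to 2 for Soy-20% + SAA against Cas-20% (2 without Soy-20% + SAA liver 1 or 2).

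Signs turned only among values that were not called. In Soy-10% against Soy-20% + SAA, *Srxn1* went from -0.025 to 0.016 with the replicate block, 0.30 with the slope covariate and 0.32 without libraries 3 to 6, where *Txnrd1* was 0.031. Leaving out 1 liver gave -0.095 to 0.089 for *Srxn1* and -0.016 to 0.043 for *Gpx1* there. It gave -0.17 to 0.0054 for *Gsr*, -0.25 to 0.072 for *Nqo1* and -0.0013 to 0.061 for *Txnrd1* in Cas-5% against Cas-20%, and -0.039 to 0.018 for *Gpx1* and -0.057 to 0.042 for *Txnrd1* in Soy-10% against Soy-20%.

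Deviations of same-numbered livers correlated above 0.1 in 0 to 2 of 6 pairs per comparison. Of 6 livers, 0 to 3 per comparison correlated best with the liver of their own number, 3 in Soy-20% + SAA against Cas-20%. Whether replicate numbers pair the livers cannot be decided from these values. The block ended the calls of *Hmox1* (adjusted p = 0.0504 with casein and 0.0509 with soy) and of *Prdx1* in Soy-20% + SAA against Cas-20% (adjusted p = 0.0762). Depth limits *Nqo1* and *Hmox1* most, with 21 to 144 raw counts per liver.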
